A study of Homo sapiens with 9 samples.

Results

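The S100 calcium-binding proteins measured here are 10 genes: S100A2, S100A4, S100A6, S100A8, S100A9, S100A10, S100A11, S100A13, S100A14 and S100A16. They were chosen by symbol among the 26869 genes of a SLAM-Seq table of MCF10A cells, an immortalised but not tumour-forming line of human breast epithelium. SLAM-Seq reads newly made RNA. Cells take up 4-thiouridine (4sU), RNA made during the pulse carries it, and after alkylation with iodoacetamide a labelled U is read as C. The T>C conversion rate is the share of T bases that were read as C. It is given here in percent and includes the background of unlabelled RNA. Total mRNA was read from the 3′ ends of the same libraries as reads scaled to library size (CPM).

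All groups used MCF10A cells in which JUN had been knocked out and replaced by JUN-AID-V5, a JUN fused to an auxin-inducible degron and a V5 tag, together with TIR1, the plant adaptor through which auxin acts on the degron. Both proteins were expressed from introduced vectors. In the IAA 4sU group the cells received 100 µM indole-3-acetic acid (IAA), the auxin, which degrades the fusion protein, and from 1 h later 100 µM 4sU for 1 h. In the DMSO 4sU group DMSO took the place of IAA. The no 4sU group was the control without 4sU and without IAA, whose solvent the labels do not give. Each group was labelled as 3 samples. The 3 columns of the IAA group were equal in every row, so they were counted as 1 library, and 7 distinct libraries were compared. The study describes its replicates as biological. The labels do not say what each number shares.

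The libraries held between 18997637 and 24014195 reads. Epithelial markers summed to 1951 to 2810 CPM with 0 of 8 markers at 0, which fits the labelled cell type. Myeloid markers, listed because S100A8 and S100A9 abound in neutrophils and monocytes, summed to 5.63 to 13.4 CPM without 4sU, 7.37 to 14.8 CPM with DMSO and 4sU and 17.2 CPM with IAA, with 2 to 4 of 8 at 0. Fibroblast and endothelial markers summed to 18.6 to 23.8 CPM, 23.3 to 28.5 CPM and 27.0 CPM in the same order, with 3 or 4 of 8 at 0. In bulk RNA, fewer cells of a type and less RNA per cell cannot be told apart.

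S100 proteins are small proteins that bind calcium through paired EF-hands. Most form dimers, and calcium binding opens a surface with which they hold other proteins, among them annexins, myosin and receptors at the cell surface. Many are abundant in surface epithelia, and their genes lie close together in the epidermal differentiation complex, a cluster of genes for the outer layers of the skin. S100A8 and S100A9 form calprotectin, which binds zinc and manganese and is released at sites of inflammation.

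In the GENCODE annotation of GRCh37 all 10 genes lie on chromosome 1 between bases 151955391 and 153603836, and 9 of them are on the minus strand. S100A9, at 153330330 to 153333499, is the exception, and S100A8, at 153362508 to 153363549, lies on the other strand with S100A12 between them. The length of the counted 3′ interval lay within 1 base of an annotated 3′ UTR for 6 of the 10 genes, for example 99 bases in S100A6 and 333 bases in S100A2. S100A13, at 153591263 to 153603836, overlaps S100A1 on the other strand. S100A4, at 153516089 to 153522612, overlaps S100A3 on the same strand, and its 2 intervals of 143 and 140 bases held the same reads. For S100A11, at 152004982 to 152020383, 8 processed pseudogenes are annotated. S100A6 and S100A11 each overlap an annotated gene without a symbol on the other strand, and S100A13 overlaps such a gene on the same strand. How reads that match several places were counted is not given in the sources used here, nor is the strand setting. The levels of S100A4, S100A6, S100A11 and S100A13 are therefore less certain than the others.

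The promoters are shown because JUN is a subunit of AP-1, which binds the letters TGACTCA. RefSeq start sites (GRCh38.p14) gave 16 windows for the 10 genes, each from 250 bases before to 50 bases after a start site. TGACTCA, searched on both strands, was found in 1 of these windows, that of S100A2, against 4.95% of all 35116 windows of this length. The CRE letters TGACGTCA, also bound by JUN with ATF partners, were in none of them, against 1.85% of all windows. CATTCC, a core bound by TEAD factors, was found in 2 windows, both of S100A16, against 14% of all windows. TATAAA on the sense strand was found in 5 windows of 4 genes, against 7.33%. The windows of S100A8 that hold it overlap and share the same TATAAA, at -29 from 1 start site and -126 from another. The 120 bases before the start site follow for the genes with TGACTCA or TATAAA, 5′ to 3′ on the gene's strand, with those letters in capitals.
S100A2 (chr1:153565845-153565964, minus strand): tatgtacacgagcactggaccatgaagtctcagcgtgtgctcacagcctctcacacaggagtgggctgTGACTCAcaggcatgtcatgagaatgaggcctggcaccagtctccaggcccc
S100A4 (chr1:153545807-153545926, minus strand): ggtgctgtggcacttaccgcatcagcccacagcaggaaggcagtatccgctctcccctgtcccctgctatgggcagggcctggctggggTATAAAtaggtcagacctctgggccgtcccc
S100A8 (chr1:153391074-153391193, minus strand): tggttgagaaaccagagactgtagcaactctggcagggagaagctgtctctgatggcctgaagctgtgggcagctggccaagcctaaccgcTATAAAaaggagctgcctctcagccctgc
S100A9 (chr1:153357734-153357853, plus strand): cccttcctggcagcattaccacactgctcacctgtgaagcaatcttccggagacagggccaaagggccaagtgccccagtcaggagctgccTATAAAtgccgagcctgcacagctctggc
S100A13 (chr1:153627506-153627625, minus strand): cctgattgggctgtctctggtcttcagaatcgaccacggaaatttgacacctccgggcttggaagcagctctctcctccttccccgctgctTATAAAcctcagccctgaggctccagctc
The TATAAA of S100A8, S100A9 and S100A13 begins at -29 from the start site, that of S100A4 at -31, and the TGACTCA of S100A2 at -52. A match is a description of these letters and not a binding site.

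For 9 of the 10 S100 genes, all but S100A4, the mRNA was among the most abundant of these cells. Per kilobase of counted interval, S100A6 led in the cells without 4sU with 16549 ± 1297 CPM per kb (SD, n = 3). S100A2 followed with 9145 ± 4148, S100A8 with 6087 ± 1009 and S100A11 with 5489 ± 3786 CPM per kb (SD, n = 3). The ranges of neighbours in this order overlapped from S100A2 to S100A11, whereas S100A6 stood above S100A2 in range. S100A10 came next with 2298 ± 304 CPM per kb, then S100A16 with 1440 ± 36.1 and S100A13 with 1112 ± 447 (SD, n = 3). S100A14 had 815 ± 237 and S100A9 had 761 ± 54.0 CPM per kb (SD, n = 3), and the ranges from S100A16 down to S100A9 overlapped from neighbour to neighbour. S100A4 was last with 43.8 ± 6.72 CPM per kb. In percentiles of the 11466 genes compared, S100A4 was at 75.1 and the other 9 were at 97.9 or above on this scale. Reads came from the 3′ ends of transcripts and need not scale with interval length, so the order per kilobase is only 1 way to set the genes side by side. In CPM without regard to length, S100A2 came first with 3045 ± 1381 CPM and S100A6 followed with 1638 ± 128 CPM (SD, n = 3), with separate ranges. On that scale S100A4, with 6.26 ± 0.96 CPM (SD, n = 3), was at percentile 27.0, below the median gene's 15.3 CPM, and the other 9 were at 91.5 or above.

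**Figure D1:**
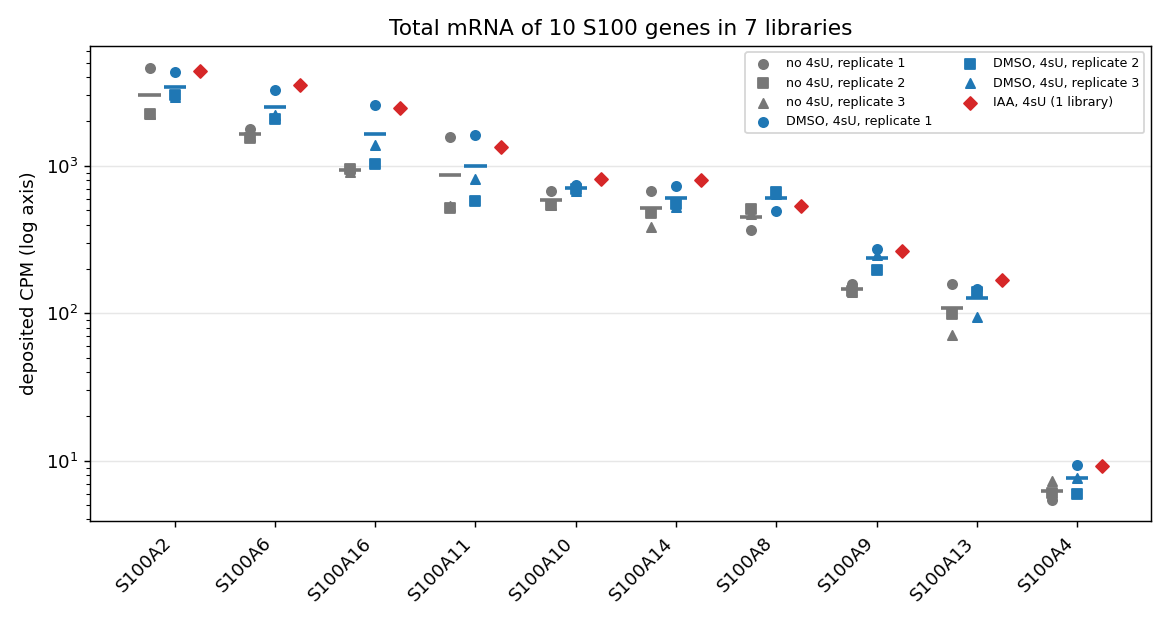
Deposited CPM (log axis) of each S100 gene (x axis, by level without 4sU) in 7 libraries; points are libraries, short bars are means of 3 libraries. In S100A6, S100A9 and S100A16 the 3 DMSO 4sU libraries lie above the 3 libraries without 4sU, and in S100A11 replicate 1 lies above replicates 2 and 3 in both groups.

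The first comparison asks which S100 mRNAs carried label after the pulse, with DMSO 4sU against no 4sU. The T>C rate rose past the threshold in 5 of the 10 genes, S100A8, S100A11, S100A13, S100A14 and S100A16, by 0.91 to 1.45 on the scale of log2(rate + 0.0005) (limma, adjusted p from 0.0059 to 0.018). Of all 10895 genes tested, 48.6% were called higher. The 5 of 10 is close to this share, so the count by itself does not set the family apart. The size of the rise is set beside that of all genes further below. In 9 of the 10 genes, all but S100A4, the 3 labelled libraries lay above the 3 unlabelled ones, against 62.8% of all genes. Among the 7232 tested genes with at least 200 reads on average, where S100A4 drops out, S100A2 and S100A10 also passed, which gave 7 S100 genes, against 62.2% of those genes. The calls moved with the libraries used, in the S100 genes and in the whole table. Without replicate 1 the 5 became 1 (S100A8), against 20.4% of all genes, and without replicate 2 also 1 (S100A8), against 24.9%. Without replicate 3 they became 2 (S100A8 and S100A13), against 23.7%, and with the replicate number as a block 2 (S100A8 and S100A11), against 38.8%. Relative to each library's median rate 0 of the 10 were called higher, against 8.44%, and 310 of all 10895 genes were called lower. There all but S100A8 (0.082) and S100A13 (0.060) had a log2 difference below 0. Calls in the lower direction were not counted for the S100 genes. On simulated data this fit of the rates made more false calls than the nominal share. The simulation changed far fewer genes than were called here, so the share of false calls among these is not known.

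S100A8, the smaller subunit of calprotectin, had rates of 0.0314, 0.0165 and 0.0464% without 4sU and 0.163, 0.175 and 0.174% with DMSO and 4sU. The groups were far apart, and the log2 difference was 1.45 ± 0.24 (SE, n = 3 per group, limma adjusted p = 0.0059). Its partner S100A9 had 0.0885, 0.137 and 0.109% without and 0.194, 0.288 and 0.148% with 4sU, so the groups did not overlap but the labelled libraries were spread widely. Its difference of 0.66 ± 0.32 (SE) did not pass (limma adjusted p = 0.12). Without 4sU, S100A9 had 1.62 to 2.53 times the library's median rate and S100A8 had 0.304 to 0.826 times, so the subunits started from different backgrounds.

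Among the annexin partners, S100A11, which binds annexin A1 in membrane repair, had 0.0589, 0.0641 and 0.0529% without 4sU and 0.211, 0.195 and 0.198% with it. Both groups were tight, and the difference was 1.21 ± 0.22 (SE, limma adjusted p = 0.0074). S100A10, which forms a tetramer with annexin A2 and holds it at the plasma membrane, had 0.0505, 0.0669 and 0.0807% without and 0.120, 0.120 and 0.134% with 4sU. Its groups did not overlap, yet its difference of 0.60 ± 0.22 (SE) did not pass over all genes (limma adjusted p = 0.067).

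S100A6, calcyclin, known for binding the ubiquitin-ligase adaptor CACYBP, had 0.0565, 0.0841 and 0.0722% without and 0.130, 0.122 and 0.121% with 4sU. The labelled libraries were all higher and close together, with a difference of 0.53 ± 0.22 (SE, limma adjusted p = 0.085). S100A2, a gene of basal epithelial cells that is activated by p63, had 0.0560, 0.0757 and 0.0758% without and 0.147, 0.124 and 0.131% with 4sU. Its groups did not overlap either, with a difference of 0.63 ± 0.22 (SE, limma adjusted p = 0.054). At least 42464 reads stood behind each rate of S100A2, against 110 to 198 reads for S100A4. S100A4, known for binding non-muscle myosin IIA and for its place in cell motility, had 0.127, 0.132 and 0.0922% without and 0.0293, 0.173 and 0.111% with 4sU. Its groups overlapped, its difference was -0.23 ± 0.42 (SE, limma adjusted p = 0.65), and no change was detected. The part of its low read number in this was not tested.

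S100A16, a widely expressed member, had 0.0472, 0.0607 and 0.0744% without and 0.154, 0.165 and 0.166% with 4sU. S100A14, which is found in epithelia, had 0.0613, 0.0574 and 0.0727% without and 0.172, 0.170 and 0.150% with it. S100A13, which takes part in the release of proteins that lack a signal peptide, had 0.0565, 0.0208 and 0.101% without and 0.228, 0.276 and 0.196% with it. In all 3 genes the groups were separate, and the differences were 0.94 ± 0.22, 0.91 ± 0.22 and 1.43 ± 0.35 (SE) in this order (limma adjusted p = 0.017, 0.017 and 0.018).

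**Figure D2:**
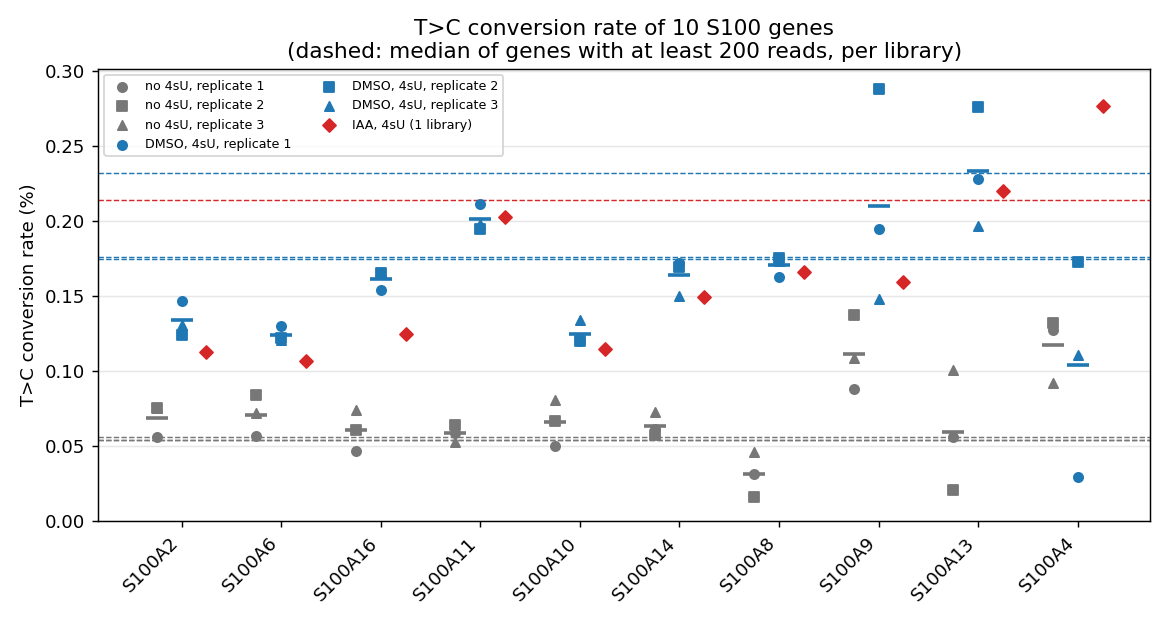
T>C conversion rate in percent of each S100 gene in 7 libraries (points; short bars are means of 3 libraries; dashed lines are library medians of genes with at least 200 reads). Labelled libraries lie above unlabelled ones for each gene but S100A4, and S100A2, S100A6, S100A8, S100A10, S100A14 and S100A16 lie below the median of their own library in each labelled library.

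The gain in rate, the mean with DMSO and 4sU less the mean without 4sU, was set beside that of all 7232 tested genes with at least 200 reads, whatever their level. Of the 9 S100 genes with at least 200 reads, 7 had a gain below the median gene's 0.139 percentage points, and 3 of them, S100A6 (0.0535), S100A10 (0.0587) and S100A2 (0.0649), were below the 25th percentile of 0.0728. S100A8 had 0.139, just under the median, S100A11 had 0.143 and S100A13 had 0.174 percentage points. Over the 10 genes the median log2 difference in rate was 0.79, against 1.27 over all genes tested.

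The same libraries were compared in total mRNA, which asks whether the S100 mRNAs had other levels in the DMSO 4sU group than without 4sU. Whether the cells without 4sU received DMSO is not given, so the pulse and the solvent cannot be told apart. All 10 log2 differences were above 0, but none passed over all genes (limma, 0 of 10 higher against 0.0% of 11466 genes, and 0 of 10 lower against 1.67%). At an unadjusted p under 0.05, 3 S100 genes were higher, S100A6, S100A9 and S100A16, beside 324 genes higher and 855 lower in the whole table. In these 3 genes each library with 4sU was above each library without it, against 10.3% of all genes. In 7 of the 10, CPM was higher with 4sU in each of the 3 pairs of the same replicate number, against 27.4%. The median difference over the 10 genes was 0.23, against 0.04 over all genes. The share of all genes with a difference above 0 was not counted, so the 10 of 10 above 0 is only a description.

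S100A9 had 158, 142 and 139 CPM without 4sU and 273, 197 and 247 CPM with DMSO and 4sU. The groups did not overlap, with a ratio of means of 1.63 and a difference of 0.66 ± 0.16 on the scale of log2(CPM + 1) (SE, limma adjusted p = 0.097). DESeq2 on the recovered reads called it (adjusted p = 0.012), as 1 of 4 genes or 0.0349% called higher, while edgeR's quasi-likelihood test did not (adjusted p = 0.093). Without replicate 1, limma's adjusted p for S100A9 was 0.048, and over its alternatives in limma, edgeR and DESeq2 it ran from 0.012 to 0.9995. S100A8 had 367, 510 and 474 CPM without and 497, 666 and 645 CPM with 4sU. It was higher in each numbered pair, by 1.36, 1.30 and 1.36 times, although the groups overlapped. The difference of 0.39 ± 0.20 did not pass in the fit that leaves the replicate number out (SE, limma adjusted p = 0.58). With that number as a block S100A8 was at an unadjusted p under 0.05 (limma), beside 726 genes higher and 1082 lower. It did not pass over all genes there either. Myeloid markers were also somewhat higher in each numbered pair, at 13.4, 5.81 and 5.63 CPM without and 14.8, 8.16 and 7.37 CPM with 4sU in total, and their part in the calprotectin values was not tested.

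S100A6 had 1784, 1544 and 1587 CPM without and 3270, 2088 and 2218 CPM with 4sU. Replicate 1 gave the largest step, 1.83 times, against 1.35 and 1.40 times in the others, and the difference was 0.56 ± 0.20 (SE, limma adjusted p = 0.33). S100A16 had 918, 957 and 915 CPM without and 2571, 1024 and 1375 CPM with 4sU. Here too replicate 1 stood out, with 2.80 times, and the lowest step was 1.07 times in replicate 2, and the difference was 0.69 ± 0.29 (SE, limma adjusted p = 0.46).

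S100A10 had 678, 546 and 541 CPM without and 738, 702 and 673 CPM with 4sU, a narrow spread in which only the highest unlabelled library overlapped the labelled ones. S100A11 had 1568, 518 and 533 CPM without and 1611, 576 and 818 CPM with 4sU. Replicate 1 was far above the others in both groups, which left a difference of 0.23 ± 0.45 (SE, limma adjusted p = 0.90). S100A2 had 4640, 2260 and 2235 CPM without and 4352, 3010 and 2942 CPM with 4sU, again with replicate 1 on top in both groups. S100A14 had 679, 482 and 385 CPM without and 730, 550 and 529 CPM with 4sU. S100A13 had 157, 99.1 and 71.0 CPM without and 147, 139 and 93.8 CPM with it. The groups overlapped in S100A2, S100A11, S100A13 and S100A14, whose differences lay between 0.20 and 0.23 (limma adjusted p from 0.79 to 0.90). S100A4 had 5.44, 6.03 and 7.32 CPM without and 9.30, 5.91 and 7.62 CPM with 4sU, with overlapping groups and a difference of 0.20 ± 0.21 (SE, limma adjusted p = 0.80).

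**Figure D3:**
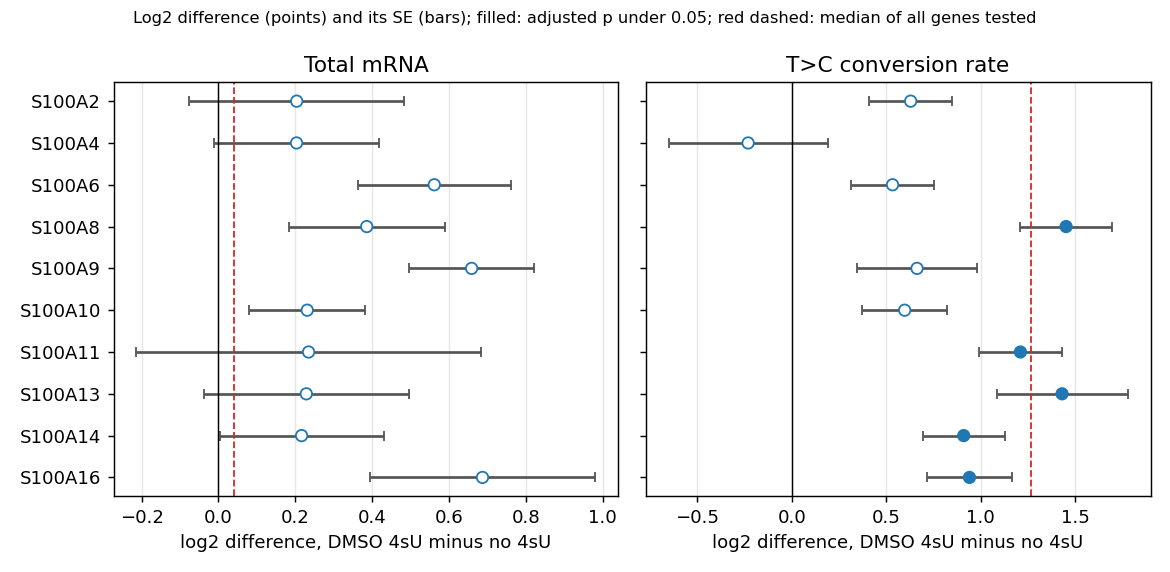
Log2 difference between DMSO 4sU and no 4sU with its SE, n = 3 libraries per group, for total mRNA (left, CPM + 1) and T>C rate (right, rate + 0.0005); the dashed line is the median of all genes tested. In total mRNA all 10 points lie above 0 with none called, and in the rate S100A8, S100A11, S100A13, S100A14 and S100A16 are called (filled).

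The replicate number went with the level of several S100 mRNAs. Replicate 1 was above replicates 2 and 3 in both the unlabelled and the DMSO 4sU group for 7 of the 10 genes, S100A2, S100A6, S100A9, S100A10, S100A11, S100A13 and S100A14, against 23.8% of all genes. This is a description of libraries and has no test. For S100A11 replicate 1 held 2.74 times the level of the others without 4sU and 2.34 times with it, and for S100A2 1.89 and 1.46 times. S100A16 stood apart, with 0.90 times without 4sU and 2.16 times with it. S100A8 ran the other way, with 0.69 and 0.76 times. The 10 genes together held 1.10, 0.706 and 0.689% of the reads without 4sU, 1.42, 0.896 and 0.955% with DMSO and 4sU, and 1.43% with IAA. What replicate 1 shares is not given in the labels, so its part in the values above was not tested.

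Across the 7 libraries S100A11 had the widest range of the 10 genes, 1.57 log2 units, and S100A10 the narrowest, 0.43. The genes whose CPM followed S100A11 most closely were SERPINB8 (Pearson r = 0.995), MGAT1 (0.993), PGLS (0.993), GPRIN1 (0.992) and, highest, CDK16 (0.997), over 7 libraries that share the replicate 1 pattern. Among the S100 genes, S100A6 and S100A16 (r = 0.97), S100A2 and S100A11 (0.96) and S100A2 and S100A14 (0.92) ran most alike over these libraries. S100A8 and S100A9, whose proteins pair, had r = 0.36, and S100A8 and S100A11 had the lowest value, r = -0.62.

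The IAA comparison asks whether loss of JUN protein went with other levels of new or total S100 mRNA. With 1 library there is no test. A gene was counted as changed where that library lay beyond the range of the 3 DMSO 4sU libraries and differed from their mean by 1 log2 unit or more. JUN mRNA itself, which does not report on the degraded protein, had 30.2, 20.3 and 25.6 CPM with DMSO and 62.9 CPM with IAA. In the no 4sU group, which also had no IAA, this mRNA was at 50.2 ± 6.60 CPM (SD, n = 3), with 57.6 CPM at most. The DMSO 4sU group was thus low against both other groups, with 0.505 times the mean without 4sU. The cause of this was not tested. In total mRNA 0 of the 10 S100 genes were counted as changed, against 0.158% of 11412 genes. With TMM library sizes S100A6, S100A10, S100A13 and S100A14 lay above the DMSO range, against 20.7% of all genes, and on the deposited CPM, which the values here are, S100A2 did so too. S100A6 had 3554 CPM, S100A2 4411, S100A16 2448, S100A11 1341 and S100A10 815 CPM. S100A14 had 799, S100A8 536, S100A9 267, S100A13 168 and S100A4 9.27 CPM. The IAA library was above the DMSO mean in 9 of the 10 genes, all but S100A8, by at most 0.59 log2 units (S100A16). The median difference over the 10 genes was 0.32, against -0.0022 over all genes. The share of all genes above the DMSO mean was not counted, and several S100 genes ran alike over the libraries.

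The IAA library was also set beside single DMSO 4sU libraries. Its difference from replicate 1 was between -0.34 (S100A11) and 0.12 (S100A13) in log2 CPM. From the mean of replicates 2 and 3 it differed by 0.96 in S100A16, 0.88 in S100A11 and 0.64 in S100A6. Against replicate 2 alone S100A11 (1.15) and S100A16 (1.19) were past 1 log2 unit, beside 204 genes higher and 34 lower of 11007 in the whole table. The number of the IAA library is unknown, so IAA and the replicate number cannot be told apart in these values. S100A2, the gene with TGACTCA before its start, had 4411 CPM with IAA against 4352, 3010 and 2942 CPM with DMSO. It was not counted as changed, and with TMM library sizes its difference from DMSO replicate 1 was -0.061 log2 units. A part of these letters in the values was not tested.

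**Figure D4:**
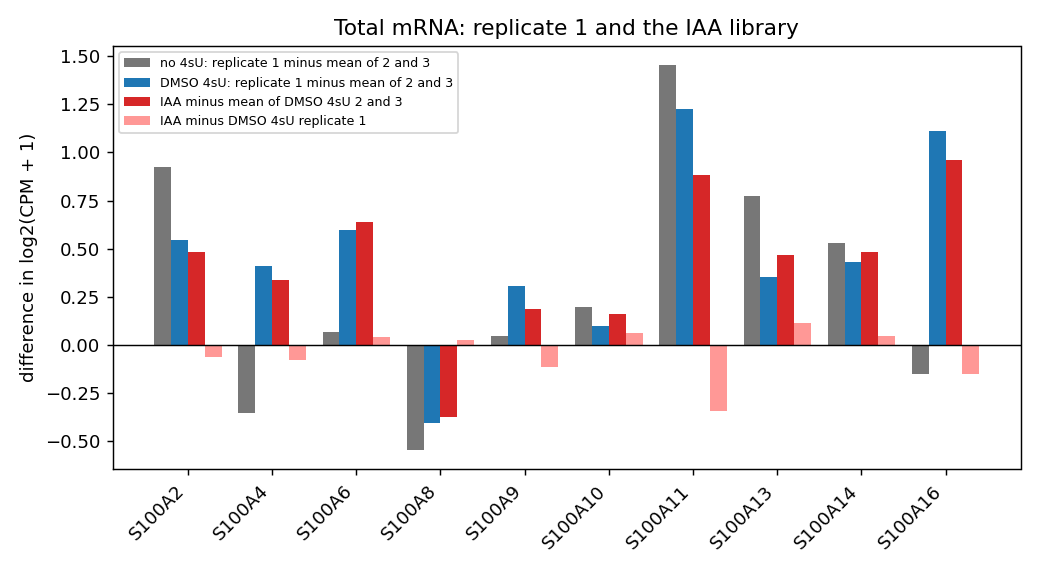
Differences in log2(CPM + 1) (y axis) for each S100 gene: replicate 1 minus the mean of replicates 2 and 3 without 4sU (grey) and with DMSO 4sU (blue), and the IAA library minus the mean of DMSO 4sU replicates 2 and 3 (red) or minus replicate 1 (pink). Blue and red bars subtract the same libraries and are not independent. The pink bars stay between -0.34 and 0.12. These are single libraries without error bars.

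In T>C rate 1 of the 10 genes was counted as changed with IAA, S100A4, against 21.4% of 11762 genes. Its rate was 0.277%, above the 0.0293 to 0.173% of the DMSO libraries, a difference of 1.05 log2 units with each library's rates set relative to its median, and it rests on 186 reads. Against DMSO replicates 2 or 3 alone it was not past this limit. Over all genes the rule counted 1213 higher and 1309 lower with IAA. With DMSO replicate 1, 2 or 3 in the place of IAA it counted 1254, 1381 and 1223 higher and 1528, 1204 and 1252 lower. Such calls were thus about as frequent for a DMSO library. S100A2 (0.113%), S100A6 (0.107%), S100A9 (0.159%), S100A14 (0.149%) and S100A16 (0.125%) lay below the DMSO range on this relative scale, 5 of 10 against 26.4% of all genes. Their differences lay between -0.25 and -0.43 log2 units. S100A8 (0.166%), S100A10 (0.115%), S100A11 (0.203%) and S100A13 (0.220%) lay within the range. A fit over the 7 libraries that assumes the lone IAA library to vary like the rest called 0 of the 10 genes in rate and 0 in total mRNA (limma, adjusted p). Over all genes it called 5 higher and 3 lower in rate and 1 higher in total mRNA.

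Other genes of the family and its partners were read from lists made beside the members. Of 11 other S100 genes 10 were in the table, and 4 were at 0 in all libraries. S100A3, whose gene overlaps S100A4, had 15.4, 10.0 and 9.84 CPM without and 8.74, 6.91 and 6.57 CPM with 4sU. Its rate rose from 0.151, 0.0433 and 0.0504% to 0.844, 0.501 and 0.558%, a difference of 2.44 ± 0.43 (SE, limma adjusted p = 0.0071). It was the only 1 of the 10 that could be tested in rate. In total mRNA 4 of the 10 were tested, S100A3 among them, and none was called higher or lower.

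Of the 12 tested partners and receptors of S100 proteins, 6 had a higher rate with 4sU and none a lower one: ANXA1, ANXA2, AHNAK, MYH9, CACYBP and SUGT1. This is close to the 48.6% of all genes. ANXA1, annexin A1 and partner of S100A11, rose by 1.87 ± 0.31 (SE, limma adjusted p = 0.0056). ANXA2, the partner of S100A10, rose by 0.64 ± 0.21 (SE, limma adjusted p = 0.046). MYH9, the heavy chain of the myosin that S100A4 binds, rose by 1.25 ± 0.27 (SE, limma adjusted p = 0.012). In total mRNA none of the 12 passed.

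Of the 17 tested EF-hand genes outside the family 5 had a higher rate, CALM2 and CALM3, which encode calmodulin, CALU, CETN2 and MYL6, below the 48.6% of all genes. Of the 40 other genes of the epidermal complex 17 were at 0 in all libraries. IVL, which encodes the envelope protein involucrin, and LCE1B rose in rate among 7 tested, also below that share. LCE1B, with 12 to 34 reads per library, had a rate of 0 in every library without 4sU. IVL had 0, 0.0691 and 0% there. Both genes thus passed the filter only with the help of the labelled libraries, and their calls are not independent of it. The differences of both lists from the share were not tested. Neither of these lists had a gene past the test in total mRNA. The median rate differences were 0.91 for the partners, 0.67 for the other EF-hand genes and 0.87 for the complex, against 1.27 over all genes.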

How the data were processed

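The authors processed QuantSeq 3′ end libraries with a SLAM-Seq pipeline written in Nextflow. Its version is not given in the sources used here, and the submitters' processing notes name hg19. For the 3′ interval of each RefSeq transcript they deposited a fraction, the T>C conversion rate with its background, and a signal, CPM. All non-zero CPM (100%) were whole multiples of 1 read within 0.001 reads, so the counts were recovered. Of 56868 rows 97.7% matched a symbol. Equal rows of a gene were used once, other intervals (19.7% of genes) were summed in reads and averaged in rate, and the rate of S100A4 is such a mean. Per-sample columns left unused numbered 0.

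limma (3.58.1, R 4.3.3, trended and robust variances) was run on log2(rate + 0.0005), for genes whose rate exceeded 0 in 3 or more of 6 libraries, and on log2(CPM + 1) with TMM library sizes, for genes with CPM of at least 1 in 3 libraries. p-values were adjusted over all genes (Benjamini-Hochberg) at 0.05. edgeR (4.0.16) and DESeq2 (1.42.0) were alternatives. The fits were tested on simulated data, where that of the rates made more false calls than the nominal share. For IAA, at least 2 of 4 libraries had to pass and rates were centred on library medians. Same-numbered libraries deviated together in total mRNA (r = 0.39, 0.32 and 0.37) and not in rate (0.0043, -0.0019 and -0.031). The numbers therefore pair total mRNA. The main fit of total mRNA left the replicate number out, so its SE include the spread between replicate numbers.

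The members and lists were chosen with earlier results of these data known. All 10 members are named. From the other lists those past a threshold are named, JUN once, and the 5 genes most like the most variable member.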

Additional observations from a re-analysis of the deposited data

How the results depend on the processing

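The count of S100 genes with a higher rate after 4sU moved from 5 to 0 when each library was centred on its median, where S100A2 (-0.74), S100A4, S100A6 (-0.84), S100A9 (-0.71), S100A10 (-0.77), S100A11 (-0.16), S100A14 (-0.46) and S100A16 (-0.43) had log2 differences below 0 relative to the other genes. It was 2 with the replicate block and 1 to 2 with 1 replicate number left out (1 without replicate 1 or 2, S100A8, and 2 without replicate 3, S100A8 and S100A13). In total mRNA the count of higher genes moved from 0 to 1 (S100A9) with DESeq2 and was 0 to 1 with a replicate number left out, 1 without replicate 1. With the replicate block it stayed at 0 (S100A9 limma adjusted p = 0.060). There 4 S100 genes were higher at an unadjusted p under 0.05, beside 726 genes higher and 1082 lower of 11466. With a replicate number left out, the difference of S100A4 ran from -0.49 to 0.24 in rate and from -0.089 to 0.34 in total mRNA, and both changed sign without replicate 1. The IAA count in rate moved from 1 to 0 with a pseudocount of 0.002, without DMSO replicate 1, against DMSO replicates 2 or 3 alone, and in limma over the 7 libraries. The IAA count in total mRNA moved from 0 to 2 against DMSO replicate 2 alone, where 204 genes were higher and 34 lower of 11007. The comparisons with single DMSO replicates were chosen after seeing the data. The other settings left the counts within 1.5 times. The cause of these shifts was not tested. With 3 libraries per group, 110 to 198 reads limit the rate of S100A4.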
